A study of Homo sapiens with 12 samples.

Results

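The transcription factor p53 controls a set of well-known target genes, and 31 of these genes were followed in SW480 cells. SW480 is a human colorectal adenocarcinoma line that carries mutant p53. The 31 genes were chosen by name as established p53 targets, with earlier results of these data known. They were read from all 33331 genes listed in the deposited count tables, and each was listed once in each of the tables. Of the 31 genes, 30 had enough reads to be tested. The remaining gene, SPATA18, which acts in mitochondrial quality control, had between 0 and 10 reads in each library.

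RNA-seq had been run on 12 libraries in 4 groups of 3 biological replicates. A first pair of groups was a single SW480 clone in which ALDH1B1, a mitochondrial aldehyde dehydrogenase, had been knocked out. This clone expressed either EGFP, a fluorescent control protein, or ALDH1B1. A second pair was the parental SW480 line, treated for 24 h with either the solvent DMSO or 2 µM of an inhibitor selective for ALDH1B1. The labels name no DNA-damaging agent in any group, and they do not state which promoter drives the constructs. Replicates were cultures of 1 clone or 1 line, so the p-values below describe the spread between cultures.

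In cells with wild-type p53, damage or stress stabilizes the protein, which then binds DNA as a tetramer and switches on its targets. Some targets stop the cell cycle, others lead to cell death, DNA repair or altered metabolism, and some, above all MDM2, restrain p53 itself. Many p53 mutations found in tumours lie in the DNA-binding domain and weaken this binding. Several of these genes are also under the control of other transcription factors.

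The promoter sequences show where the letters of a p53 site lie beside some of these genes. RefSeq windows on GRCh38.p14, from 250 bases before to 50 bases after a start site, were at hand for 25 of the 31 genes, and 7 of these 25 (28%) held an exact match to the p53 decamer consensus, on either strand since the consensus is palindromic. Over all 27305 genes with a window the share was 8.06%. A full p53 site is a pair of decamers separated by at most 13 bases. DDB2, which encodes a damage-recognition protein of nucleotide excision repair, was the only one of the 31 genes whose window held a pair, against 10 of 35116 windows (0.0285%) over all genes. The 7 stretches of 30 bases are shown 5′ to 3′ on the strand of the gene, with the decamers in capitals, because they include PLK2 and AEN, whose RNA changed.
DDB2 (chr11:47214975-47215004, plus strand): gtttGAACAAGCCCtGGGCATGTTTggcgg
PLK2 (chr5:58460199-58460228, minus strand): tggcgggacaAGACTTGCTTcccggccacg
AEN (chr15:88621296-88621325, plus strand): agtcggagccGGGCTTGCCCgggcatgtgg
FAS (chr10:88991299-88991328, plus strand): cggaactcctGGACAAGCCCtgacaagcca
SESN1 (chr6:109009018-109009047, minus strand): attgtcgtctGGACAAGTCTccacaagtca
FDXR (chr17:74872986-74873015, minus strand): gggcaggagcGGGCTTGCCCtgcggagcag
RPS27L (chr15:63157517-63157546, minus strand): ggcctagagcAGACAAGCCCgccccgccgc
DDB2 shows a pair of decamers, and the other stretches show a single exact one each. A match is a description of letters and not of binding, and a window without one says only that these exact letters are not in it.

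Levels below are CPM, the counts of a gene relative to the size of its library, scaled over all 12 libraries by edgeR's TMM method. The libraries held between 32617089 and 39018926 counted reads. EGFP replicate 3 stood apart from the other EGFP libraries, with a chi-square per degree of freedom of 9.77 and 14.4 against 3.75 between those. In the same way DMSO replicate 2 gave 9.43 and 6.40 against 3.48. Calls of targets that change without either library are named beside the result. ALDH1B1 itself, the targeted gene, stood at 18.4 ± 0.44 CPM (SD, n = 3) in the clone with EGFP, 100.8 ± 3.2 in the clone with ALDH1B1, 49.5 ± 3.8 with DMSO and 50.4 ± 0.53 with the inhibitor. The epithelial keratins KRT8 and KRT18 were abundant in every group. VIL1, a marker of intestinal epithelium, averaged 347.5 CPM with DMSO and 0.14 CPM in the clone with ALDH1B1, on CPM scaled within each table. CDX2, an intestinal transcription factor, went the other way on that scale, with 25.5 and 49.5 CPM. Of the 9 tested epithelial markers 5 were higher and 4 lower in the clone with ALDH1B1 than with DMSO.

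In the clone, expression of EGFP in place of ALDH1B1 went with changes in 8 of the 30 tested p53 targets, 3 of them higher and 5 lower. All 8 changes were below 2-fold. The background is broad, since 17.6% of all 17404 genes tested passed the same threshold, 8.36% higher and 9.22% lower. The gene for p21 (CDKN1A) and MDM2 were not among the genes that changed. The share of targets that passed was 26.7%. The median log2 fold change, in which rises and falls cancel, was 0.009 over the 30 targets and 0.011 over all genes. The median absolute log2 fold change was 0.128 over the targets and 0.143 over all genes. All calls use edgeR's quasi-likelihood test with a Benjamini-Hochberg adjusted p under 0.05, with the clone expressing EGFP relative to the clone expressing ALDH1B1. In bulk RNA, fewer cells expressing a gene and less RNA per cell cannot be told apart.

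Among the 3 genes that restrain p53, only CCNG1 passed the test in the clone. CCNG1 (chr5:163437569-163446151, hg38) encodes cyclin G1, which helps to activate MDM2. Its level was 155, 149.8 and 141 CPM in the EGFP libraries and 122, 121 and 128 CPM in the ALDH1B1 libraries. All EGFP libraries lay above all ALDH1B1 libraries. CCNG1 rose by 0.27 on the log2 scale (SE 0.05, edgeR adjusted p = 0.0016). MDM2, the ubiquitin ligase that marks p53 for degradation, had a log2 fold change of -0.06 (SE 0.05), and PPM1D, a phosphatase that dampens damage signalling, one of -0.04 (SE 0.07), and neither passed.

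Of the 5 genes that slow the cell cycle, the polo-like kinases PLK2 and PLK3 fell in the clone. PLK2 (chr5:58453982-58460260) encodes a stress-responsive kinase of the centrosome cycle, and its promoter stretch is shown above. It stood at 41.0, 41.9 and 44.1 CPM with EGFP and at 53.04, 50.6 and 52.2 CPM with ALDH1B1, without overlap. Its log2 fold change was -0.29 (SE 0.05, edgeR adjusted p = 0.0021). PLK3 (chr1:44800225-44805990), a related stress kinase, stood at 7.90, 7.87 and 9.84 CPM with EGFP and at 11.3, 10.8 and 10.0 CPM with ALDH1B1. The highest EGFP library was close to the lowest ALDH1B1 library. The PLK3 change of -0.32 (SE 0.10, edgeR adjusted p = 0.047) was lost when any library other than EGFP replicate 3 was left out and with DESeq2, with adjusted p up to 0.17. CDKN1A (0.07, SE 0.05), the damage-inducible GADD45A (0.08, SE 0.08) and the antiproliferative gene BTG2 (0.34, SE 0.12, adjusted p = 0.076) did not pass on the log2 scale.

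Of the 9 genes of cell death, the largest role group, 4 passed in the clone, in both directions. The share of all genes that passed was 17.6%, and 2 of the 5 cell cycle genes above passed. The role groups were set after values were seen, so their counts are not ranked. TP53INP1 (chromosome 8, positions 94925972 to 94949411), which encodes a stress-induced protein that promotes cell death and autophagy, rose from 4.70, 5.28 and 5.92 CPM with ALDH1B1 to 9.03, 8.55 and 8.79 CPM with EGFP. The groups were well separated, and the log2 fold change of 0.74 (SE 0.11, edgeR adjusted p = 0.00053) was the largest of the 30. AEN, PMAIP1 and TRIAP1 fell. AEN (chr15:88621296-88632282) encodes an apoptosis-enhancing nuclease and stood at 59.3, 63.9 and 57.1 CPM with EGFP against 76.1, 74.8 and 72.9 CPM with ALDH1B1. Its libraries did not overlap, and the log2 fold change was -0.30 (SE 0.05, edgeR adjusted p = 0.0015).

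PMAIP1 (chr18:59899948-59904306), which encodes the BH3-only protein NOXA, stood at 19.5, 20.1 and 18.7 CPM with EGFP and 24.5, 23.9 and 22.9 CPM with ALDH1B1. PMAIP1 had a log2 fold change of -0.28 (SE 0.06, edgeR adjusted p = 0.0086). TRIAP1 (chr12:120443961-120446412), whose product restrains apoptosis, stood at 24.1, 22.3 and 23.4 CPM with EGFP and 31.2, 31.6 and 29.2 CPM with ALDH1B1. Both genes were thus lower in every EGFP library, TRIAP1 with a log2 fold change of -0.39 (SE 0.06, edgeR adjusted p = 0.00075). The genes that fell therefore included promoters of cell death and an inhibitor of it. The pore-forming BAX (-0.17, SE 0.09), the BH3-only gene BBC3 (0.25, SE 0.09), the death receptors FAS (0.04, SE 0.07) and TNFRSF10B (0.03, SE 0.05) and the AKT antagonist PHLDA3 (0.09, SE 0.11) did not pass on the log2 scale.

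Of the remaining targets only KITLG passed in the clone. KITLG (chr12:88492793-88580851) encodes stem cell factor, the ligand of the receptor KIT. It stood at 16.4, 16.7 and 20.2 CPM with EGFP and 10.96, 10.6 and 11.5 CPM with ALDH1B1. Every EGFP library was higher, with a log2 fold change of 0.70 (SE 0.09, edgeR adjusted p = 0.00016). None of the 5 genes of DNA repair and nucleotide supply passed. The log2 fold changes of these genes, the repair genes XPC and DDB2, the translesion polymerase gene POLH, the ribonucleotide reductase gene RRM2B and the helicase gene ASCC3, ran from -0.08 to 0.11. No tested gene of metabolism and redox passed either. TP53I3, a quinone oxidoreductase gene, came to -0.18 (SE 0.11) and TIGAR, which lowers glycolytic flux, to -0.15 (SE 0.18).

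At an unadjusted p under 0.05, 12 of the 30 targets differed in the clone, against 5395 of all genes tested (31%). The 3 EGFP libraries lay all above or all below the 3 ALDH1B1 libraries for 12 targets, 4 higher and 8 lower. Over all genes this held for 35.5%, so 12 of 30 is close to the background. Without EGFP replicate 3, in which BAX, TP53I3, PHLDA3 and CD82 were at their lowest among the EGFP libraries, 12 targets passed, 6 higher and 6 lower, while the share of all genes that passed rose to 22.2%. The added calls were BBC3 at 0.34, PHLDA3 at 0.24, the tetraspanin gene CD82 at 0.37 and the ribosomal protein gene RPS27L at -0.28 on the log2 scale.

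**Figure D1:**
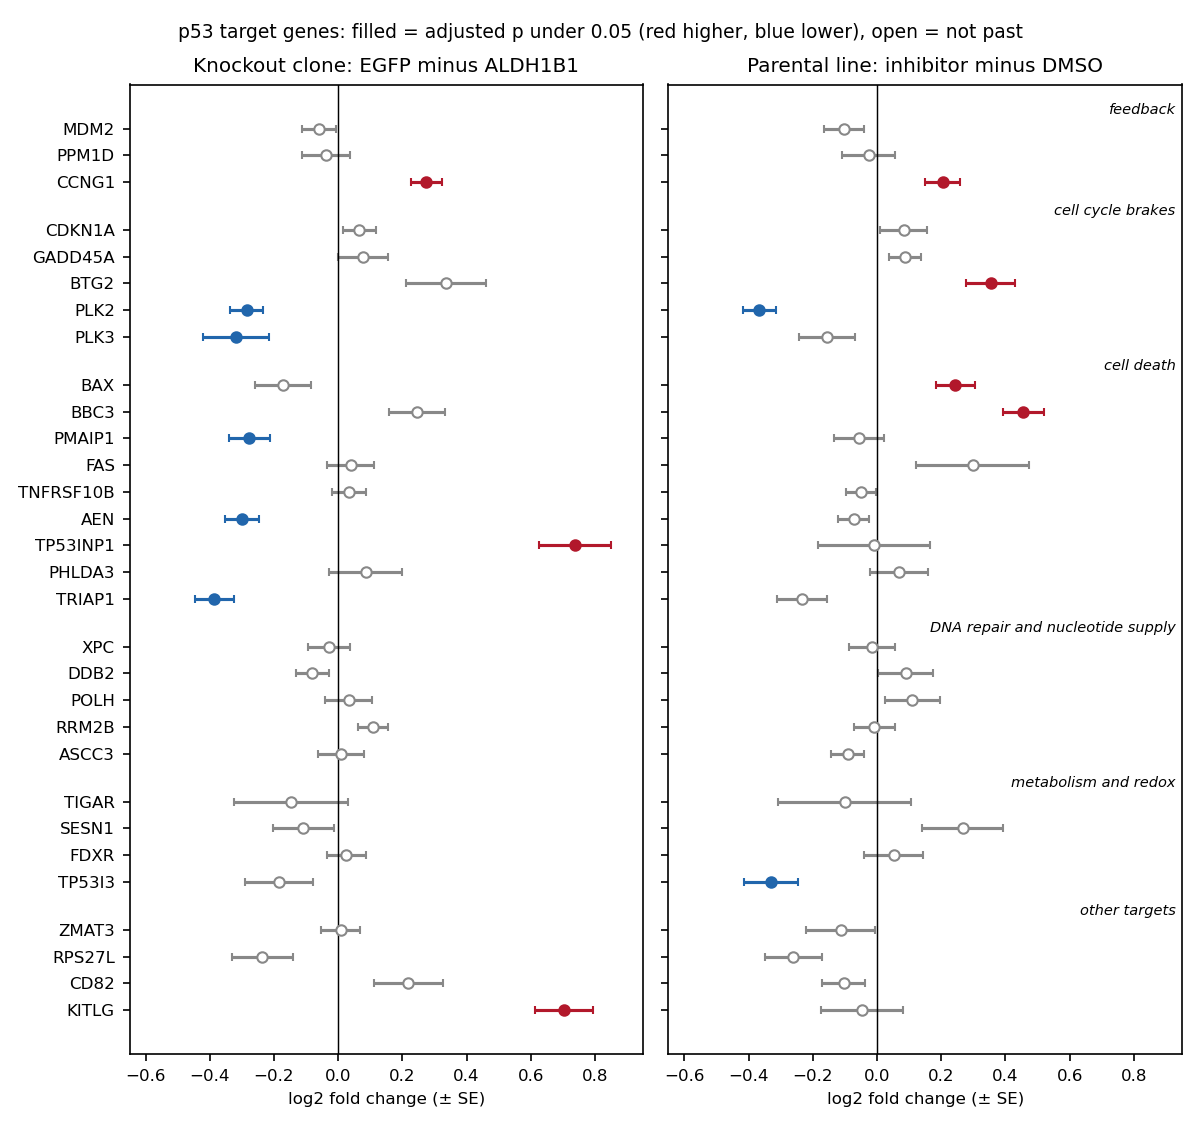
Log2 fold change (x axis, points, with bars of 1 SE) of the 30 tested p53 targets, in rows grouped by role, in the knockout clone (left, EGFP minus ALDH1B1) and the parental line (right, inhibitor minus DMSO). Filled points passed an adjusted p of 0.05, with 8 in the clone and 6 in the parental line, and the points of TP53INP1 at 0.74 and KITLG at 0.70 lie farthest from 0.

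In the parental line, the inhibitor went with changes in 6 of the 30 targets, 4 higher and 2 lower. BBC3, BTG2, BAX and CCNG1 rose, and PLK2 and TP53I3 fell. The background was lower here, since 3.99% of all 17848 genes tested passed, 1.89% higher and 2.1% lower. The share of 6 in 30 targets was 20.0%. It fell without DMSO replicate 2, as given below. Neither here nor in the clone were the targets and all genes matched for level. The median log2 fold change was -0.021 over the targets and -0.002 over all genes, and CDKN1A and MDM2 did not pass.

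BBC3 and PLK2 gave the firmest changes with the inhibitor. BBC3 (chr19:47220822-47232766) encodes PUMA, a BH3-only protein that triggers apoptosis. It stood at 95.4, 99.6 and 96.1 CPM with the inhibitor and at 73.8, 62.2 and 73.9 CPM with DMSO. The inhibitor libraries were all higher, with a log2 fold change of 0.46 (SE 0.06, edgeR adjusted p = 0.0014). PLK2 stood at 55.6, 59.1 and 55.7 CPM with the inhibitor and at 68.9, 74.4 and 74.3 CPM with DMSO. It fell by 0.37 on the log2 scale (SE 0.05, edgeR adjusted p = 0.0015). Both genes passed in each of the 13 other settings tried.

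The other 4 calls were weaker. BTG2 (chr1:203305491-203309602) stood at 26.2, 27.9 and 25.1 CPM with the inhibitor and at 22.2, 19.4 and 19.8 CPM with DMSO. BAX (chr19:48954815-48961798), whose product permeabilizes the mitochondrial outer membrane, stood at 71.5, 78.5 and 81.0 CPM with the inhibitor and at 64.1, 60.5 and 68.4 CPM with DMSO. CCNG1 stood at 151, 160.1 and 173 CPM with the inhibitor and at 143, 138 and 136 CPM with DMSO. All inhibitor libraries of these 3 genes were above all DMSO libraries. The log2 fold changes were 0.35 for BTG2 (SE 0.08, edgeR adjusted p = 0.019), 0.24 for BAX (SE 0.06, edgeR adjusted p = 0.037) and 0.20 for CCNG1 (SE 0.05, edgeR adjusted p = 0.046). TP53I3 (chr2:24077433-24085861) stood at 19.0, 21.4 and 19.4 CPM with the inhibitor and at 21.8, 27.1 and 25.6 CPM with DMSO, a log2 fold change of -0.33 (SE 0.08, edgeR adjusted p = 0.040). Its groups did not overlap, although the inhibitor's highest and the DMSO group's lowest library were close.

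Without DMSO replicate 2, 1 target passed higher (BBC3) and 1 lower (PLK2), against 2.61% of all genes. The values without it were 0.31 for BTG2 (edgeR adjusted p = 0.054), 0.19 for BAX (0.11), 0.19 for CCNG1 (0.096) and -0.27 for TP53I3 (0.11). Leaving out DMSO replicate 3, the unnumbered inhibitor library or inhibitor replicate 3 also left 1 higher and 1 lower, and without inhibitor replicate 1 there were 4 higher and 1 lower.

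Of the targets that did not pass with the inhibitor, FAS (0.30, SE 0.18), SESN1 (0.27, SE 0.13), which encodes a sestrin that restrains mTORC1, RPS27L (-0.26, SE 0.09) and TRIAP1 (-0.23, SE 0.08) had the largest log2 fold changes. At an unadjusted p under 0.05, 9 of the 30 targets differed, against 19.7% of all genes tested. The 3 inhibitor libraries lay all above or all below the 3 DMSO libraries for 7 targets, 4 higher and 3 lower, against 23.6% of all genes. With levels scaled within each table instead, the counts of targets without overlap were 10 of 30 in the clone and 9 of 30 in the parental line, against 35.2% and 24.2% of all genes.

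**Figure D2:**
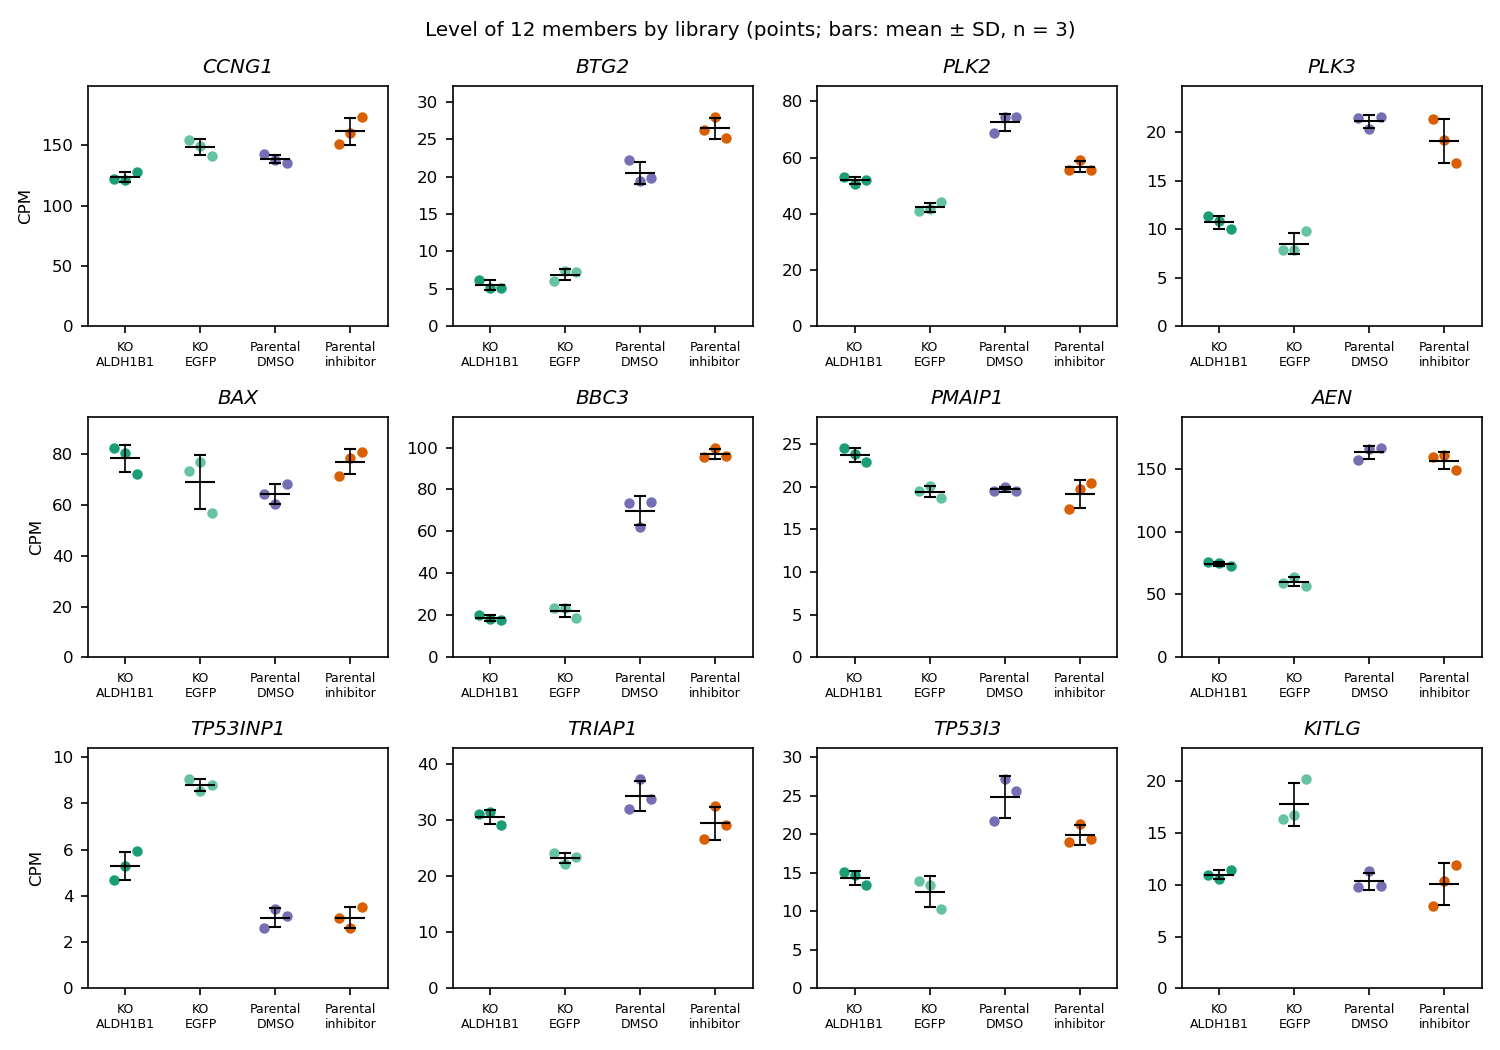
Level in CPM (y axis, from 0) of the 12 targets that passed in the clone or in the parental line, with 1 point for each of the 3 libraries in each of the 4 groups (x axis) and bars for the group mean ± SD. KITLG and TP53INP1 are separated in the clone and overlap in the parental line, while PLK2 is lower with EGFP than with ALDH1B1 and lower with the inhibitor than with DMSO.

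Between the clone and the parental line, 12 targets passed in at least 1 comparison and 18 in neither. CCNG1 was higher and PLK2 lower in both, although the CCNG1 call with the inhibitor was kept in 5 of 13 other settings and missed the threshold with other size factors (edgeR adjusted p = 0.051). No target passed in opposite directions. These comparisons share no library. The difference between the effects was tested as a contrast over the 12 libraries, clone effect minus inhibitor effect, and 3 of the 30 targets passed, 2 higher and 1 lower. Over all 19075 genes 5.11% passed, 1.9% higher and 3.2% lower.

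KITLG and TP53INP1 rose more in the clone than with the inhibitor. For KITLG the difference was 0.72 on the log2 scale (SE 0.17, edgeR adjusted p = 0.014). Its level with the inhibitor was 7.98, 10.4 and 11.97 CPM and with DMSO 9.76, 11.3 and 9.92 CPM, so these groups overlapped. For TP53INP1 the difference was also 0.72 (SE 0.20, edgeR adjusted p = 0.040), with 3.05, 2.61 and 3.52 CPM with the inhibitor and 2.61, 3.42 and 3.14 CPM with DMSO. BAX differed by -0.44 (SE 0.12, edgeR adjusted p = 0.030). In the clone BAX stood at 73.2, 76.8 and 56.8 CPM with EGFP and 82.3, 80.5 and 72.1 CPM with ALDH1B1, which overlap.

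The KITLG difference passed in each of the 17 other settings, the BAX difference in 10 and the TP53INP1 difference in 9. Leaving out EGFP replicate 3, DMSO replicate 2, ALDH1B1 replicate 1 or 2 or the unnumbered inhibitor library ended both the BAX and the TP53INP1 call. DMSO replicate 1 and inhibitor replicate 3 ended that of BAX, and EGFP replicate 1, DMSO replicate 3 and inhibitor replicate 1 that of TP53INP1. Without EGFP replicate 3 the BAX difference was -0.31 (edgeR adjusted p of 0.05 after rounding) and the TP53INP1 difference 0.73 (0.057), while CD82 became a call with a difference of 0.45 (0.017), against 0.30 (0.24) with all libraries. For CCNG1 and PLK2, called in the same direction in both comparisons, the differences were 0.04 (SE 0.08) and 0.06 (SE 0.08). For AEN, PMAIP1, PLK3 and TRIAP1, called in the clone only, the differences were -0.25, -0.25, -0.19 and -0.18 and did not pass, so these genes are not shown to respond differently in the clone and in the parental line.

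The clone and the parental line differed far more from each other than either pair of groups did internally. Relative to the DMSO-treated parental line, 26 of 30 targets passed in the clone with ALDH1B1 (14 higher and 12 lower) and 25 of 30 in the clone with EGFP (13 higher and 12 lower). Background was similar, at 75.3% of all genes for the clone with ALDH1B1 (38% higher and 37.4% lower) and 75.5% for the clone with EGFP (37.8% higher and 37.7% lower). The median absolute log2 fold change was 0.77 and 0.80 over the targets and 0.73 and 0.72 over all genes. Both comparisons use the same DMSO libraries, and the clone and the parental line lie in different deposited tables. Clone derivation, the knockout, the construct, the ALDH1B1 level, treatment with DMSO and any batch between the tables thus cannot be told apart. In the clone with EGFP, BAX passed only without EGFP replicate 3 (0.20, edgeR adjusted p = 0.0099, against 0.10 and 0.28 with it), and SESN1 (0.30, edgeR adjusted p = 0.022) did not pass without DMSO replicate 2 (0.23 and 0.11).

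Among the cell cycle genes the largest contrasts ran in opposite directions. CDKN1A (chr6:36676460-36687339), the p21 gene, was 5.001-fold higher in the clone with ALDH1B1 and 5.20-fold higher in the clone with EGFP. It stood at 18.7, 19.2 and 19.0 CPM with DMSO, at 99.1, 93.2 and 92.2 CPM with ALDH1B1 and at 99.8, 103 and 93.2 CPM with EGFP. GADD45A (chr1:67685061-67688338) fell from 474, 445 and 488 CPM with DMSO to 41.0, 36.9 and 35.3 CPM with ALDH1B1 and 42.8, 40.8 and 34.7 CPM with EGFP. It was 12.4-fold and 11.9-fold lower. BTG2 was 3.73-fold lower in the clone with ALDH1B1 and 2.98-fold lower in the clone with EGFP. In none of these genes did a clone library overlap a DMSO library.

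The death genes also split. FAS (chr10:88990582-89015785) was 6.62-fold and 6.74-fold higher in the clone, with 3.06, 3.17 and 2.37 CPM with DMSO, 19.7, 18.7 and 18.3 CPM with ALDH1B1 and 18.7, 18.1 and 20.9 CPM with EGFP. PHLDA3 was 4.47-fold and 4.71-fold higher. BBC3 was 3.74-fold and 3.18-fold lower, AEN 2.19-fold and 2.71-fold lower, and TNFRSF10B, which encodes the TRAIL receptor DR5, 2.51-fold and 2.47-fold lower. FAS and TNFRSF10B, both death receptor genes, therefore moved in opposite directions. Of the other targets, RRM2B was 2.30-fold and 2.46-fold higher, the RNA-binding protein gene ZMAT3 2.34-fold and 2.33-fold higher, and CD82 2.44-fold and 2.11-fold lower. In all, 5 targets were at least 2-fold higher in both clone groups and 6 were at least 2-fold lower. A change of at least 2-fold in either direction was seen in 11 of 30 targets with ALDH1B1 and 13 of 30 with EGFP, against 38.3% and 37.8% of all genes, so these counts are close to the background.

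MDM2 was lower in both clone groups, by log2 fold changes of -0.34 (SE 0.06) and -0.41 (SE 0.06). Fibroblast markers differed between the clone and the parental line as well, in both directions. The sum over 8 such genes was 39.2 to 40.5 CPM with ALDH1B1, 53.1 to 53.3 with EGFP, 14.6 to 17.2 with DMSO and 15.2 to 17.0 with the inhibitor. Of these 8 genes 3 reached 1 CPM in the clone and 4 in the parental line. COL1A1, PDGFRB and FBLN1 reached it in both and were higher in the clone. LUM went the other way. It averaged 7.10 CPM with DMSO and 8.28 CPM with the inhibitor, scaled within each table, and was not listed in the table of the clone. Immune markers summed to at most 2.16 CPM and endothelial markers to at most 1.60 CPM in any library. The part of these marker differences in the results was not tested.

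**Figure D3:**
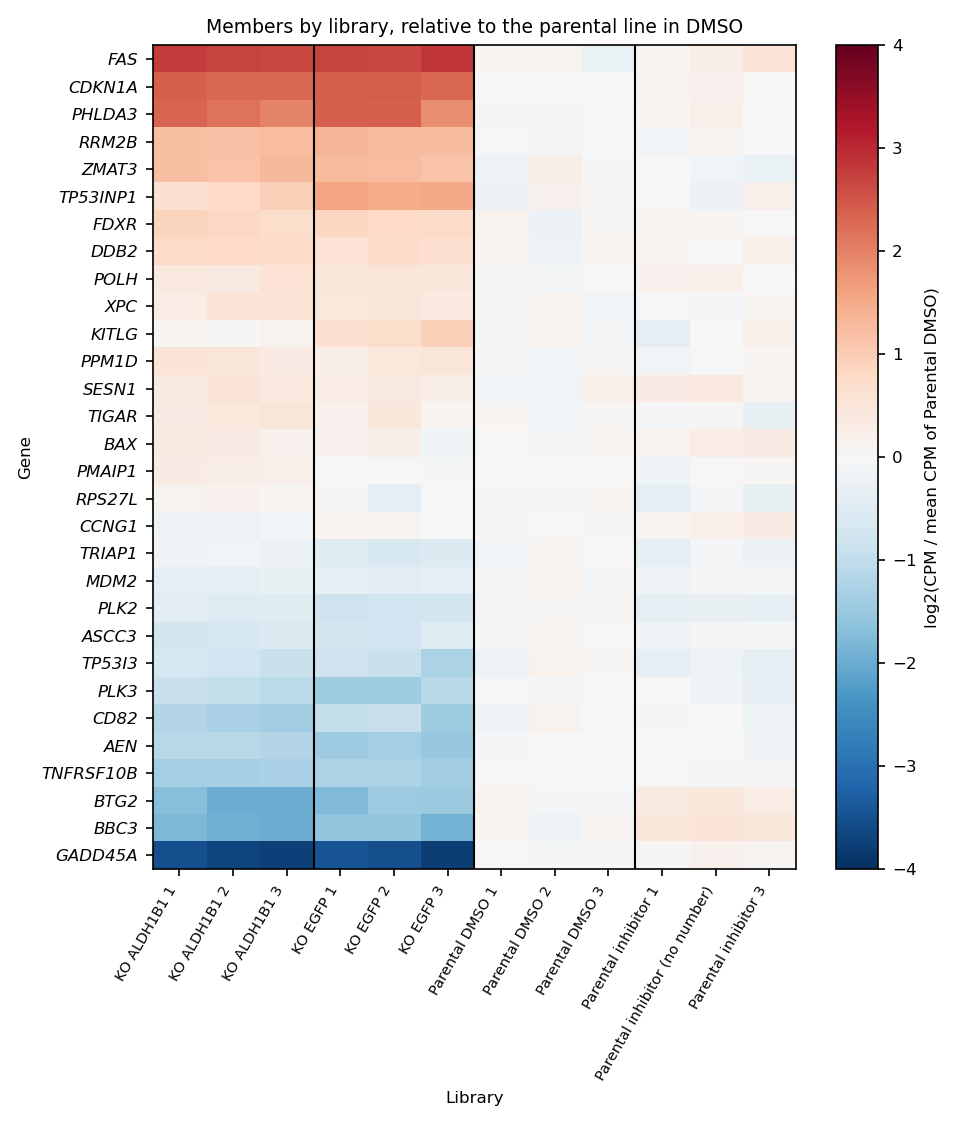
Heat map of the 30 tested p53 targets (rows, ordered by their mean in the clone) in the 12 libraries (columns, by group), coloured by the log2 of CPM over the mean CPM of the DMSO libraries. The clone and the parental libraries form blocks, with CDKN1A and FAS high and GADD45A low in the clone.

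The order of the targets by level also differed between the clone and the parental line. Levels were divided by the length of the principal GENCODE transcript for this comparison (CPM per kb). The order depends on the length chosen. For BAX the principal transcript has 793 bases and all its exons together 2587, and the order by the latter was not computed. BAX led in the clone, with 98.7 ± 6.9 CPM per kb with ALDH1B1 and 87.0 ± 13 with EGFP (SD, n = 3). GADD45A led in the parental line, with 314 ± 15 CPM per kb with DMSO and 337 ± 15 with the inhibitor, and BAX came next with 81.1 ± 5.0 and 97.1 ± 6.2. CCNG1 came after BAX in all 4 groups. CDKN1A came next in the clone, at 41.8 ± 1.6 CPM per kb with ALDH1B1, and lay at 8.37 ± 0.11 with DMSO, next to PLK3 at 8.48 ± 0.27, from which it did not differ beyond the spread. The lowest tested genes were TIGAR and TP53INP1 in each group. Replicate spread was small, with a median coefficient of variation of the targets between 5.16% and 6.90% across groups.

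Other genes of the pathway were read from lists of regulators, further targets and cell cycle genes. These lists too were chosen with earlier results of these data known. Among regulators of p53, 4 of 29 tested fell in the clone and none rose, and 1 of 30 fell with the inhibitor. These were 13.8% and 3.33% of the regulators tested. Over all genes 9.22% were lower in the clone and 2.1% with the inhibitor, and 17.6% and 3.99% passed in either direction. RPL11, a ribosomal protein that can bind and inhibit MDM2, fell in both, by log2 fold changes of -0.28 (SE 0.06, edgeR adjusted p = 0.0048) and -0.26 (SE 0.06, edgeR adjusted p = 0.035). PRKDC, the catalytic subunit of a DNA damage kinase, fell in the clone with -0.30 (SE 0.06, edgeR adjusted p = 0.0029). Among further p53 targets, 3 of 37 rose and 7 fell in the clone, and 1 of 38 rose and 2 fell with the inhibitor, in all 27.0% and 7.89% of those tested. GDF15, a stress-induced cytokine of the TGF-beta family, rose in both, by 0.54 (SE 0.08, edgeR adjusted p = 0.00044) and 0.41 (SE 0.08, edgeR adjusted p = 0.011). SFN, which encodes the cell cycle regulator 14-3-3 sigma, fell in both by log2 fold changes of -0.30. The SE was 0.05 in the clone (edgeR adjusted p = 0.0016) and 0.08 with the inhibitor (edgeR adjusted p = 0.042). For SFN and RPL11 the inhibitor libraries overlapped the DMSO libraries. With 1 library left out, 0 to 4 further targets and 0 to 2 regulators passed with the inhibitor.

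Of the 23 tested cell cycle genes that p53 lowers through p21 and the DREAM repressor complex, 9 fell in the clone and none rose, and 2 fell with the inhibitor and none rose. The other 14 and 21 did not pass. Over all genes tested, 9.22% were lower and 8.36% higher in the clone, and 2.1% and 1.89% with the inhibitor. The survivin gene BIRC5 (-0.32, SE 0.04), the phosphatase gene CDC25A (-0.29, SE 0.05) and the mitotic activator gene CDC20 (-0.28, SE 0.05) fell most in the clone on the log2 scale. With the inhibitor the mitotic kinase gene CDK1 (-0.21, SE 0.05) and the kinesin gene KIF23 (-0.20, SE 0.05) fell. The median log2 fold change of this list was -0.14 in the clone and -0.09 with the inhibitor, against 0.011 and -0.002 over all genes. Relative to the DMSO group, 18 of the 23 were higher and 2 lower in the clone with ALDH1B1, and 17 higher and 3 lower in the clone with EGFP, against 38% higher and 37.4% lower and 37.8% higher and 37.7% lower over all genes. CDKN1A was higher in both too. The number of cell cycle genes past the threshold ranged from 5 to 16 in the clone when 1 library was left out, and that of all genes from 1371 to 3951.

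**Figure D4:**
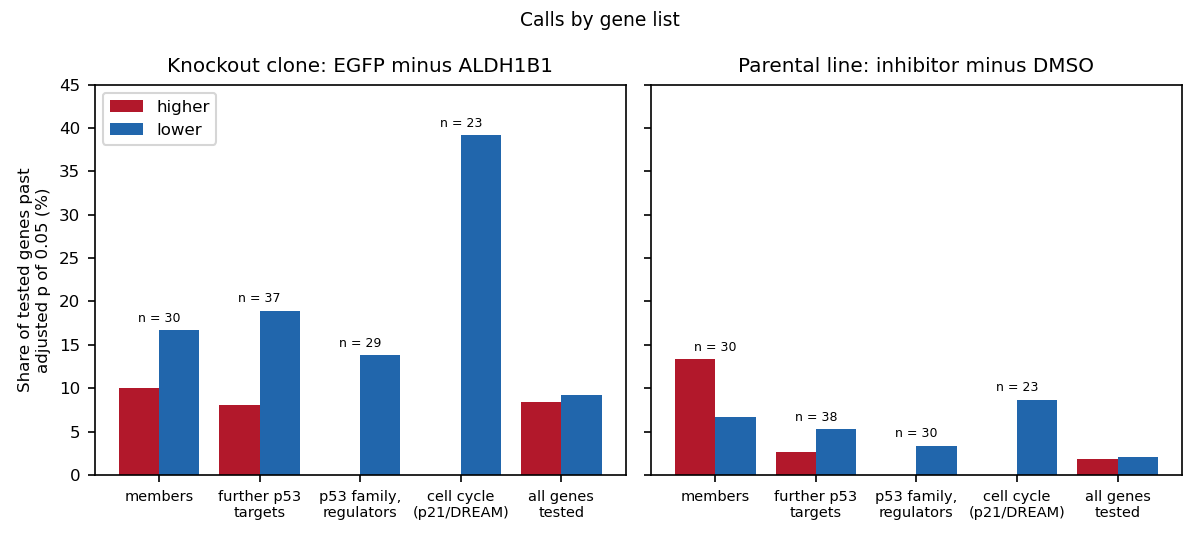
Share of tested genes (y axis, percent, from 0) past an adjusted p of 0.05 in each list (x axis, n tested above the bars), higher in red and lower in blue, in the clone (left) and in the parental line (right). Shares among all genes tested were 8.36% higher and 9.22% lower in the clone and 1.89% and 2.1% in the parental line.

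Exons of some targets are shared with other genes, which bears on their counts. In the principal transcript 61.5% of TIGAR, 36.9% of XPC and 22.7% of PHLDA3 overlap exons of another gene. Smaller shares were found for SESN1 (6.9%), CD82 (5.5%), TP53I3 (4.0%), PLK3 (3.1%) and TNFRSF10B (1.6%). The other targets called in the clone or with the inhibitor share none. The counting rule and its use of strand are not stated in these sources, so the counts of TIGAR, XPC and PHLDA3 are uncertain.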

How the data were processed

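RNA from 12 SW480 libraries was oligo(dT)-selected, per the labels' protocols. Tools named in the submitters' processing notes are STAR, fastp and DESeq2, with the hg38 build. The sources used here do not give the counting program, strand rule or annotation. Values used were the deposited whole-number counts per gene, per the file headers. Another 24 per-sample columns were not used. The authors' deposited tables also hold log2 fold changes and p-values, used only as a check: with an adjusted p under 0.05 they call 7 of the targets in the clone, all but PLK3, and 6 with the inhibitor. The spans and exon lengths of all 33331 genes equal GENCODE 29. One inhibitor column has no replicate number and was used as an unnumbered replicate.

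Genes passing edgeR's filterByExpr were tested with edgeR 4.0.16 (quasi-likelihood, TMM, R 4.3.3), within each table of 6 libraries, or over 12 libraries and the 26814 genes in both tables for the difference and the clone against the parental line. P-values were adjusted over all genes tested. The SE of an edgeR log2 fold change was taken as its absolute value divided by the square root of the F statistic of the test. DESeq2 1.42.0 was an alternative. On simulated counts, 1.5-fold changes were recovered at 83% in the knockout fit (17155 genes, 6 false of 183 calls), 74% in the inhibitor fit (17560 genes, 14 of 181), 71% for the difference (18552 genes, 8 of 166) and 80% for the clone with ALDH1B1 against DMSO (18555 genes, 8 of 182). Only 1.5-fold and 2-fold changes were simulated, so the recovery of smaller changes, as in most calls here, is not known. The members and lists were chosen with earlier results of these data known. The role groups, the scaling of levels over 12 libraries and the trend over principal transcript length were chosen after values were seen. Genes of other lists were named as up to 3 largest changes past the threshold per direction, and some results are not reported here. Replicate numbers were not used to pair the samples.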

Additional observations from a re-analysis of the deposited data

Results flagged for a closer look

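Among the 30 tested p53 targets and ALDH1B1, there were 4 genes whose effect in the clone (EGFP minus ALDH1B1) differed from that of the inhibitor (inhibitor minus DMSO) by edgeR's test of the difference itself, over 12 libraries. KITLG differed by 0.72 on the log2 scale (SE 0.17, adjusted p = 0.014) and TP53INP1 by 0.72 (SE 0.20, adjusted p = 0.040), both higher in the clone. BAX differed by -0.44 (SE 0.12, adjusted p = 0.030). ALDH1B1, the targeted gene, differed by -2.48 (SE 0.09, adjusted p = 3e-15), since its RNA was lower with EGFP than with the ALDH1B1 construct and did not pass with the inhibitor. Leaving out EGFP replicate 3 or DMSO replicate 2, which stood apart from their groups, ended the BAX and TP53INP1 calls. Dixon's test of single values was not applied to groups of 3 libraries.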

How the results depend on the processing

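Alternatives were DESeq2, other size factors, no filter on low counts, a gene length trend removed, 1 fit over 12 libraries, a replicate block and leaving out each library, and none reversed a called target. AEN, CCNG1, KITLG, PLK2, PMAIP1, TP53INP1 and TRIAP1 passed in all 13 settings in the clone, and PLK3 in 7. With the inhibitor BBC3 and PLK2 passed in all 13, BTG2 in 8, BAX and TP53I3 in 6 and CCNG1 in 5. Targets that pass in neither setting were counted as unchanged whatever their sign. The cause of the changes below was not tested.

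In the clone, 5 targets rose in place of 3 without the filter and with the replicate block, and 7 regulators passed in place of 4 with either length trend removed. With the inhibitor, 1402 genes passed in place of 712 without the filter, where 2 regulators and 5 cell cycle genes passed. DESeq2 gave 4 cell cycle genes. The replicate block, possible on 4 libraries, gave 1 target higher, 1 lower and 1 cell cycle gene. The 12-library fit gave 1 target lower and 2 regulators, and the added trend over principal transcript length gave 0 regulators. For the difference, 2 targets were lower in place of 1 with DESeq2 and both length trends. Replicate numbers were not used to pair the samples in the main tests. Deviations of same-numbered libraries correlated between -0.06 and 0.11, which cannot show whether these were prepared together.

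Leaving out 1 library gave, in the clone, 1371 to 3951 genes, 3 to 6 targets higher, 4 to 6 lower, 2 to 9 regulators, 5 to 12 further targets and 5 to 16 cell cycle genes. With the inhibitor it gave 171 to 832 genes, 1 to 4 targets higher, 1 to 2 lower, 0 to 2 regulators, 0 to 4 further targets and 0 to 3 cell cycle genes. For the difference it gave 392 to 1003 genes, 1 to 2 targets higher and 0 to 2 lower. Against the DMSO group it gave 13808 to 14210 genes with 14 higher and 12 to 13 lower targets in the clone with ALDH1B1, and 13861 to 14235 genes with 12 to 14 higher and 12 lower in the clone with EGFP.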
